A study of Mus musculus with 12 samples.

Results

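The Schlafen genes of the mouse are a family of interferon-responsive genes that lie side by side on chromosome 11. Of the 48526 gene rows in the deposited count files, 7 are members considered here, Slfn1, Slfn2, Slfn3, Slfn4, Slfn5, Slfn8 and Slfn9, and all 7 were found in the files by Ensembl identifier with the version removed. The family was chosen by a measured value, the higher level of Slfn4 in both kinds of double-stranded RNA pulldown from the mutant animals. Mutant against control within a pulldown is therefore described without a test, as is Slfn4 in every comparison that uses a pulldown. Tests were run for mutant against control in RNA without pulldown. They were also run, for the other members, where a pulldown was set against that RNA, in libraries that the choice also used.

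The data were dsRIP-seq libraries, made from RNA that binds an antibody against double-stranded RNA, from epithelial cells of the upper (proximal) small intestine, taken from 4 female mice aged 3 months. The sample titles speak of the whole intestine, and the region given here is that of the extraction protocol. From each animal, RNA was sequenced without pulldown (input) and after pulldown with J2 or K1, antibodies that recognise double-stranded RNA by its shape and not by its sequence, which gave 12 libraries, 2 in each of 6 groups. The 2 KAT2A/KAT2B DKO animals, in which a related pair of lysine acetyltransferases was deleted, received intraperitoneal tamoxifen at 100 mg/kg on 4 days in 10% ethanol and 90% corn oil, and the 2 control animals received that solvent alone. Cells were taken 2 days after the treatment and released with EDTA over 50 minutes. Genotype and tamoxifen therefore cannot be told apart. The Cre line and its promoter, and the alleles the control animals carried, are not given in the sources used here.

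Schlafen proteins share a core domain that binds and, in some members, cleaves transfer RNA, and the long members add a helicase-like part. Type I and type III interferon bind receptors on the cell surface, which activate transcription factors through Janus kinases, and these bind the interferon-stimulated response element (ISRE) in the promoters of induced genes. Double-stranded RNA in the cytoplasm is a trigger of interferon production. In mice the short members Slfn1 and Slfn2 are known from T lymphocytes, where Slfn2 keeps resting cells quiescent, Slfn4 is known from myeloid cells, and Slfn3 has been studied in the differentiation of enterocytes.

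Gene counts were 10307281 to 11474107 per input library, 13308021 to 16139531 per control pulldown and 2220291 to 5826361 per DKO pulldown, with 2220291 in the K1 and 2691285 in the J2 library of DKO animal 2. Reads aligned to more than 1 place, which gene counts leave out, were 5.54% to 8.05% of the listed reads in the input and control pulldown libraries, 15.8% and 29.5% in the 2 DKO J2 libraries and 25.9% and 46.7% in the 2 DKO K1 libraries. Between the animals of a group, log2 CPM (counts scaled to library size) correlated at 0.982 or more across genes in input and in control pulldowns, at 0.840 in DKO J2 and at 0.920 in DKO K1. Kat2b had 359 and 343 counts in the control input libraries and 118 and 114 in the DKO input libraries, and Kat2a had 222 and 228 against 84 and 148. All 10 epithelial markers, among them Epcam and Vil1, were detected in every library. In bulk libraries such as these, fewer cells of a type and less RNA per cell cannot be told apart.

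The 7 genes lie within 264 kb, at chr11:82951349-83215154 of GRCm38, in the order Slfn5, Slfn9, Slfn8, Slfn2, Slfn1, Slfn4 and Slfn3. Slfn9 and Slfn8 are on the minus strand and the other members are on the plus strand. The GENCODE M21 annotation lists 22 genes in this stretch, and 13 of them have a row in the files. The promoters of 4 members are shown, because they carry the contrast the results turn on: Slfn4 and Slfn5 had the largest differences between the genotypes in input RNA, and Slfn8, which rose, and Slfn9, which did not pass the test, have the most similar promoters. Each sequence is the 250 bases before the RefSeq start in the build GRCm38.p6, written on the strand of the gene. Capitals mark matches to the ISRE core GAAANNGAA or to the shorter core of interferon regulatory factors AANNGAAA, on either strand. The 2 cores overlap, and AANNGAAA was chosen after the first search had been seen.
Slfn4, chr11:83174936-83175185, plus strand: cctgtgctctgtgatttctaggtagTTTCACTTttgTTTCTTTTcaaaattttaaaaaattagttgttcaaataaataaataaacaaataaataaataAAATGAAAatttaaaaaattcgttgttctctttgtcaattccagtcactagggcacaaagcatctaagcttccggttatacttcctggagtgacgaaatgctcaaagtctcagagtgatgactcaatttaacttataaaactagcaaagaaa
Slfn5, chr11:82951852-82952101, plus strand: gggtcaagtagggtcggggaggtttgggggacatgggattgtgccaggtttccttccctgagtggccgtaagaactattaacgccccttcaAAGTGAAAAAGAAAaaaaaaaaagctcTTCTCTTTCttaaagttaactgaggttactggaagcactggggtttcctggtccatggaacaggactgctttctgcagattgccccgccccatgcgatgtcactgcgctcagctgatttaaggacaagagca
Slfn8, chr11:83020811-83021060, minus strand: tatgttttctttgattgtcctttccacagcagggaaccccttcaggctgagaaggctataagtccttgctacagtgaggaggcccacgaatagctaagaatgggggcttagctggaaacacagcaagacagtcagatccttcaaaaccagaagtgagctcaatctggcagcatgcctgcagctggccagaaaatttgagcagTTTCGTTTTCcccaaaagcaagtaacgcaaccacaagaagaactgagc
Slfn9, chr11:82991831-82992080, minus strand: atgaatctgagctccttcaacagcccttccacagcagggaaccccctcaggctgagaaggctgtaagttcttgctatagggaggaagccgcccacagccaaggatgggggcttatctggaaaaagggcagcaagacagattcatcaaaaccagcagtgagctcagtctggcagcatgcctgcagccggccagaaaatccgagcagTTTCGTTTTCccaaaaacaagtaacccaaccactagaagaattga

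The promoters of Slfn8 and Slfn9 were identical at 206 of 250 bases, or 82.4%, and no other pair of members reached more than 32.4%. Both held 1 ISRE core match of the same letters, TTCGTTTTC, at bases -47 to -39 of Slfn8 and -44 to -36 of Slfn9, counted from the start. A second annotated start of Slfn8 puts that match at bases -135 to -127. Slfn5 held 2 ISRE core matches, GAAAAAGAA at bases -155 to -147 and TTCTCTTTC at -132 to -124. Slfn1, Slfn2, Slfn3 and Slfn4 had no ISRE core match within 250 bases before to 50 bases after the start, and 8.56% of the 32851 RefSeq promoters of that length held 1. The GAS core TTCNNNGAA was in 8.3% of promoters and in none of the 7 members. The shorter core AANNGAAA was in 23.9% of promoters and in all 7 members, with 3 matches in Slfn4. Motif matches are letters in a window and do not show binding.

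**Figure D1:**
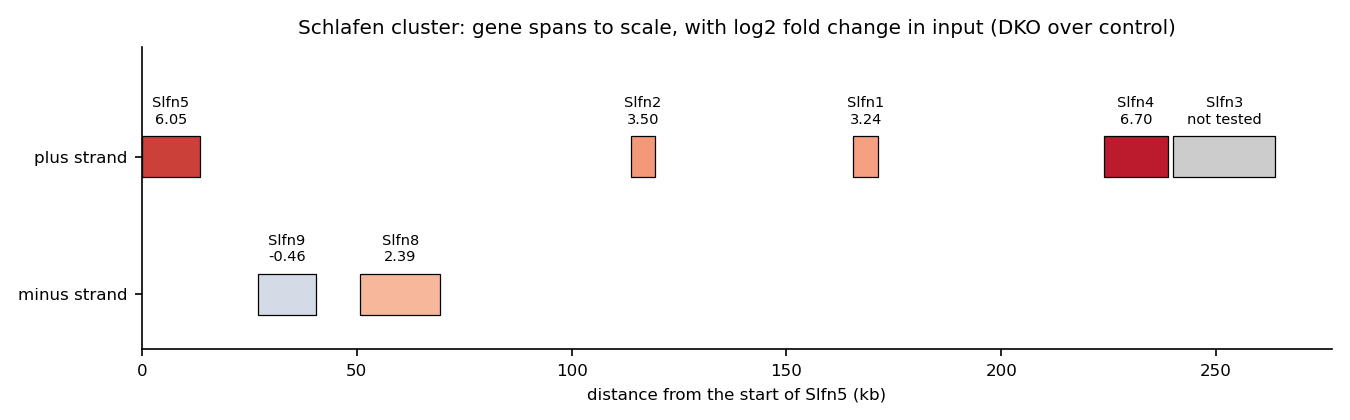
Map of the 7 Schlafen genes, drawn to scale as distance in kb from the start of Slfn5, with the strand on the vertical axis. The number over each gene and its colour give the log2 fold change of DKO over control in input RNA, from 6.70 for Slfn4 to -0.46 for Slfn9, and Slfn3 was not tested. Other annotated genes of the stretch are not drawn.

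In input RNA 5 of the 6 members that could be tested rose in the DKO animals, from 5.24-fold for Slfn8 to 104-fold for Slfn4, and Slfn9 did not pass the test. Slfn3 had too few counts to be tested. Over all 15088 genes tested, 18.8% were higher and 17.1% were lower in DKO. The input libraries were not used to choose the family, but they come from the same 4 animals. The test was edgeR's quasi-likelihood test with Benjamini-Hochberg adjustment over all genes tested. With 2 animals a group, its p-values set a difference against the spread between these animals, which the test estimates partly from all genes.

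The long-studied myeloid member Slfn4 had 74 and 42 counts in the control input libraries and 6996 and 4314 in the DKO input libraries. Scaled to CPM, these are 4.57 ± 2.09 in control and 471 ± 190 in DKO (SD, n = 2). Every DKO value lay far above every control value. This is a log2 fold change of 6.70 with an SE of 0.417 (edgeR adjusted p = 9.02e-05), and Slfn4 was higher in 2 of 2 DKO animals. Slfn4 and its neighbour Slfn3 share 896 bases at 97% identity or more, which is 22.6% of the longest Slfn4 transcript and 31.6% of that of Slfn3. Slfn3 had 0 and 0 counts in control input and 4 and 2 in DKO input. A count of 0 allows up to 3 counts, or 0.291 and 0.261 CPM by library total in these 2 control libraries, so no difference of Slfn3 was detectable at this depth.

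Slfn5, a long member that sits in the nucleus, had 39 and 22 counts in control input and 2395 and 1368 in DKO input. Its level was 2.40 ± 1.11 CPM in control and 157 ± 71.0 CPM in DKO. The groups were far apart, with a log2 fold change of 6.05 (SE 0.430, edgeR adjusted p = 1.49e-04). An antisense gene, Slfn5os, overlaps 8.84% of the exon bases of Slfn5. It was listed with 0 counts in all 12 libraries, in counts that do not use strand and do not assign reads that fall on 2 genes.

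The short member Slfn2 had 148 and 90 counts in control input and 1400 and 1140 counts in DKO input. It rose from 9.37 ± 3.86 to 105 ± 22.7 CPM, a log2 fold change of 3.50 (SE 0.284, edgeR adjusted p = 2.31e-04). Slfn1, the other short member, had 2 and 8 counts in control and 64 and 25 in DKO. Its log2 fold change of 3.24 passed the test (SE 0.704, edgeR adjusted p = 0.0106), on few counts. It was 2.63 without control animal 1, 4.43 without control animal 2 and 2.30 without DKO animal 1 (edgeR adjusted p = 0.0430). Both short members were higher in each DKO animal than in each control animal.

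Of the long members with similar promoters, Slfn8 passed the test and Slfn9 did not, and the difference between these genes was not itself tested. Slfn8 had 9 and 10 counts in control input and 54 and 40 in DKO input, a log2 fold change of 2.39 (SE 0.369, edgeR adjusted p = 0.00263). Slfn9 had 252 and 228 counts in control and 148 and 183 in DKO, or 18.7 ± 2.67 and 13.5 ± 1.04 CPM. Its log2 fold change of -0.46 did not pass (SE 0.169, edgeR adjusted p = 0.0713), although both DKO libraries were below both control libraries. In control input Slfn9 was the more abundant of this pair, and in DKO it still was. No stretch of 100 bases or more at 97% identity joined the transcripts of Slfn8 and Slfn9 to each other or to those of another gene, at the tolerance used for Slfn3 and Slfn4.

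**Figure D2:**
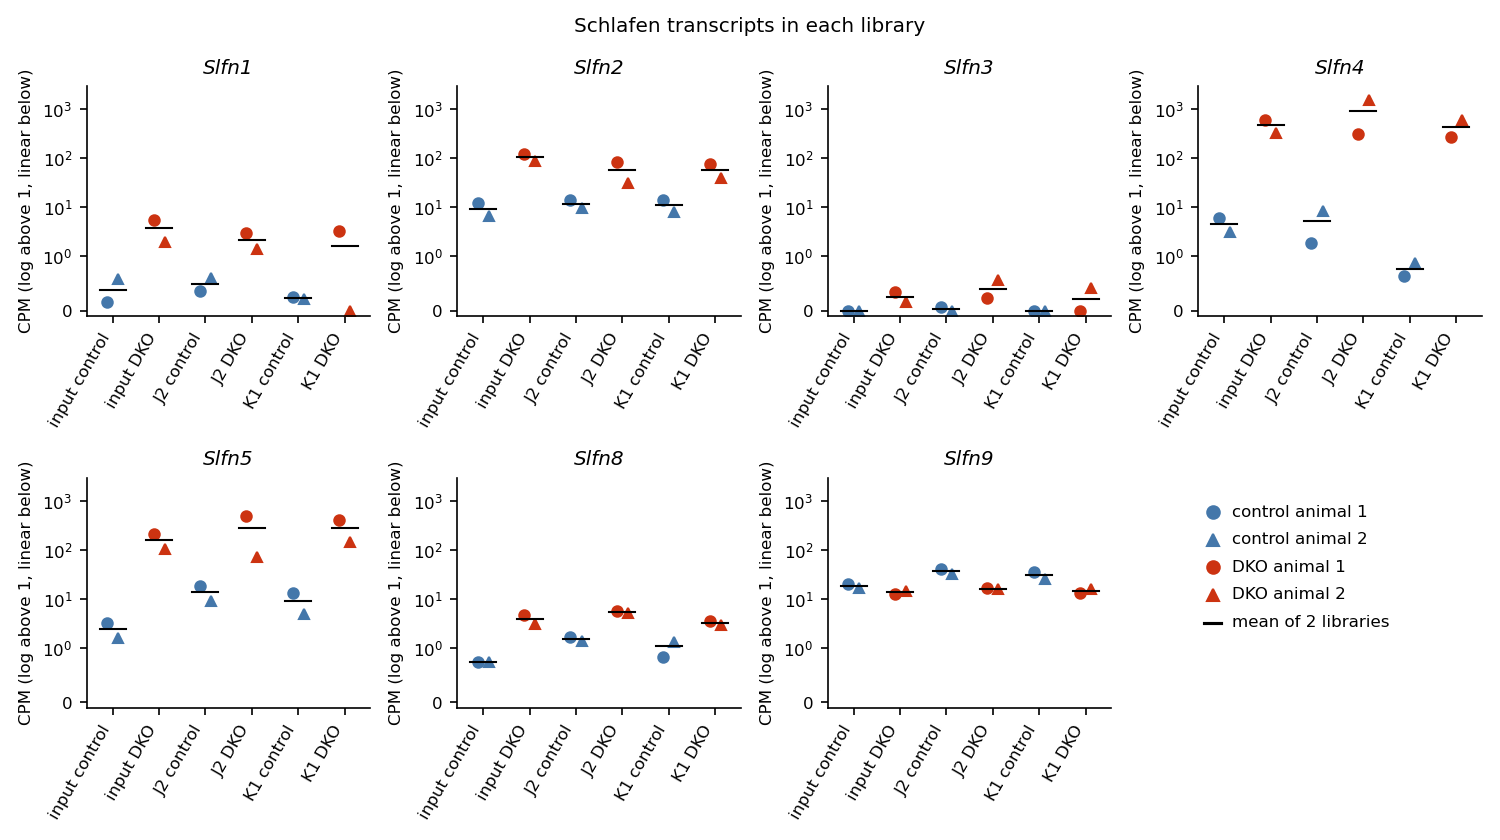
Level of each Schlafen gene in each of the 12 libraries as CPM scaled by the trimmed mean of M values (TMM), on an axis that is logarithmic above 1 and linear below. Points are single libraries, circles for animal 1 and triangles for animal 2 of each group, and black lines are means of 2. Slfn4 was between 276 and 1542 CPM in the 6 DKO libraries and at or below 8.58 CPM in the 6 control libraries, and Slfn9 had the opposite order.

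Per kilobase of annotated exon, the order of the members changed between the genotypes. In control input Slfn2 had the highest level, 5.63 ± 2.32 CPM per kb (SD, n = 2), and Slfn9 came next with 3.14 ± 0.448 CPM per kb. Slfn4 followed at 1.15 ± 0.526 CPM per kb and Slfn5 at 0.380 ± 0.175 CPM per kb, and each of these neighbours lay apart in both libraries. Slfn1 at 0.202 ± 0.162 CPM per kb overlapped Slfn5 and Slfn8. In DKO input Slfn4 was first at 119 ± 47.9 CPM per kb, ahead of Slfn2 at 63.1 ± 13.7 and Slfn5 at 24.8 ± 11.2 CPM per kb. Slfn9, at 2.27 ± 0.175 CPM per kb, and Slfn1, at 2.01 ± 1.36 CPM per kb, overlapped. Slfn8 was at 0.953 ± 0.268 CPM per kb. Slfn2 and Slfn9 thus had the highest levels per kb in control and Slfn4 and Slfn2 in DKO, with exon lengths from GENCODE M21.

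Of the related genes outside the 7, the pseudogene Slfn10-ps, which is transcribed and lies between Slfn8 and Slfn2, also rose. It had 21 and 14 counts in control input and 266 and 208 in DKO input, a log2 fold change of 3.84 (SE 0.314, edgeR adjusted p = 2.40e-04). Slfn14, which lies outside the stretch, was listed at 0 counts in all 12 libraries, and Slfnl1 had 4 counts or fewer in each.

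In the same input libraries 35 of 36 other interferon-induced genes rose, with a median log2 fold change of 3.42 over the list, against -0.00097 over all genes tested. Isg20, an RNA exonuclease, had the largest at 6.35, followed by Oas2, a synthetase of oligoadenylate, at 6.28 and Ifit2, which binds RNA, at 6.25. The value of Slfn4, 6.70, was above that of every gene in the list, and that of Slfn5, 6.05, was above all but these 3. The smallest were Parp14 at 0.92, Igtp at 1.15, which did not pass (edgeR adjusted p = 0.156), and the kinase Eif2ak2 at 1.68. Slfn1, Slfn2 and Slfn8 lay within the range of the list, and Slfn9, at -0.46, lay below its lowest gene. The list was drawn up with earlier results of these data known.

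**Figure D3:**
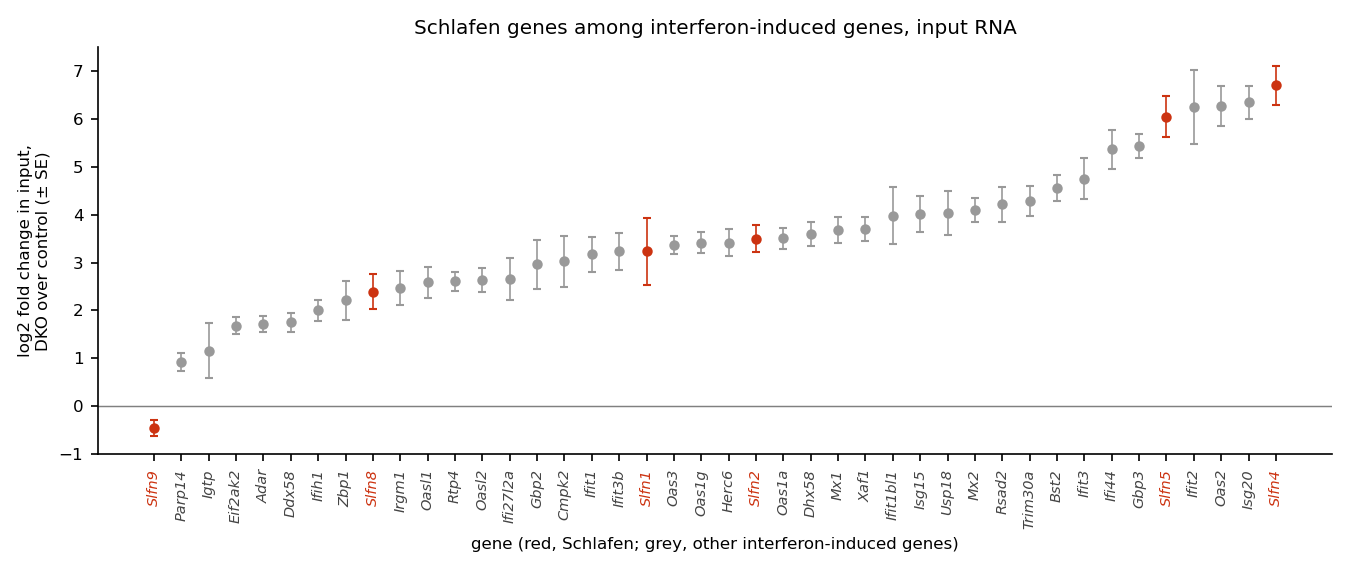
Log2 fold change of DKO over control in input RNA for the 6 tested Schlafen genes (red) and 36 other interferon-induced genes (grey), in increasing order. Bars are 1 SE, derived from the F value of the edgeR test. Slfn4 is the rightmost gene at 6.70 and Slfn9 the leftmost at -0.46.

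Of 21 genes of interferon signalling, 17 could be tested, and 10 rose and 1 fell in DKO input. Among receptors, Ifnar2 of the type I receptor rose by a log2 fold change of 1.09, Ifnlr1 of the type III receptor by 0.68 and Ifngr1 of the type II receptor by 0.71. The kinase Jak1 rose by 0.59. Of the transcription factors, Stat2 rose by a log2 fold change of 2.18, Irf9 by 1.43 and Irf7, which is itself induced by interferon, by 2.74. Of the inhibitors, Socs1 rose by 2.51 and Socs3 by 2.59. Irf1, a further transcription factor, fell by 0.78 (edgeR adjusted p = 0.00710). The ligand gene Ifnb1 had 0 counts in every library, and Ifnl2, Ifnl3 and Ifng had at most 3 counts in any input library.

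Because Slfn2 and Slfn4 are known from immune cells, markers of these cells were read in the same libraries. Of 14 T cell markers, 12 were tested in input, with 0 higher and 5 lower in DKO, and their summed level was 147 and 149 CPM in control and 109 and 99.3 CPM in DKO. Of 16 myeloid markers, 6 were tested, and 3 rose and 1 fell. Csf1r, the receptor that defines macrophages, had 8 and 7 counts in control and 67 and 27 in DKO, Cd14 rose by a log2 fold change of 1.31 and Cd68 by 1.01, and Itgax was lower by -0.85. The summed myeloid level was 13.9 and 13.3 CPM in control input and 29.3 and 17.7 CPM in DKO input. The macrophage marker Adgre1 had 0 and 4 counts in control and 5 and 0 in DKO. The neutrophil gene Ly6g had 0 and 0 counts against 10 and 6, and S100a8 had 2 counts or fewer in each. The part of these markers in the Schlafen values was not tested. The enterocyte markers, 15 genes summed, were at 33746 and 36697 CPM in control input and 38701 and 28303 CPM in DKO input, and 5 of them fell and 0 rose. Of 8 B and plasma cell markers, 1 could be tested and 0 were called, and their summed level was 2.73 to 5.28 CPM over the 4 input libraries.

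In the J2 pulldown the 6 members that entered the fit of DKO against control kept the signs they had in input. These contrasts, with those of K1, are the ones by which the family was chosen, so they are given as a description. Slfn4 had 26 and 98 counts in the control J2 libraries and 1386 and 5478 in the DKO J2 libraries, or 5.24 ± 4.72 and 930 ± 865 CPM. The 2 DKO libraries were far apart, at 319 and 1542 CPM, and both were above both control libraries. The log2 fold change was 7.84 (SE 1.40), and it was 6.29 without DKO animal 2. For Slfn5 the control J2 counts were 245 and 104 and the DKO J2 counts 2168 and 253, where DKO animal 1 was the higher at 498 CPM and animal 2 the lower at 71.2 CPM. Its log2 fold change was 4.64 (SE 1.03), and 2.69 without DKO animal 1. Slfn4 and Slfn5 thus differed in which DKO animal gave the higher J2 level, while both were higher in animal 1 in input. In the J2 library of DKO animal 2 the summed enterocyte level was 4328 CPM, against 26330 CPM in that of animal 1, and the part of that library's make-up in these values was not tested.

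Markers of stroma and endothelium were read in the same libraries. Of 10, 4 were tested in input and 1 rose, the pericyte receptor Pdgfrb, with 9 and 14 counts in control and 61 and 24 in DKO (log2 fold change 1.99, edgeR adjusted p = 0.0284). Their summed level was 2.94 and 7.08 CPM in control input and 12.1 and 6.09 CPM in DKO input, with 0 to 3 of the 10 at 0 counts in a library. In J2 it was 4.55 and 23.3 CPM in control and 165 and 32.9 CPM in DKO, and in K1 4.51 and 40.3 CPM in control and 195 and 77.6 CPM in DKO. The 5 markers in each pulldown fit all had values above 0. Their median log2 fold change of DKO over control was 3.01 in J2 and 2.74 in K1. By the edgeR test 0 passed in J2 and 2 in K1. Over all genes, 1606 of 13181 passed in J2 and 3487 of 12888 in K1. The part of these cells in the Schlafen values was not tested.

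Slfn2 was at 11.9 ± 3.02 CPM in control J2 and 58.9 ± 38.7 CPM in DKO J2, a log2 fold change of 2.57 (SE 0.540). It was 1.71 without DKO animal 1 and 3.15 without DKO animal 2. Slfn1 had 5 and 7 counts against 13 and 5, and Slfn8 had 23 and 16 against 25 and 18, so that their log2 fold changes of 2.46 (SE 0.627) and 2.10 (SE 0.475) rest on the shallower DKO libraries. Slfn9 had 548 and 376 counts in control and 71 and 57 in DKO, or 36.5 ± 5.14 and 16.2 ± 0.195 CPM, with a log2 fold change of -0.87 (SE 0.334). In Slfn1, Slfn2, Slfn4, Slfn5 and Slfn8 both DKO J2 libraries were above both control libraries, and in Slfn9 both were below. Slfn3, which was not in the fit, had 1 and 0 counts in control and 1 and 2 in DKO, too few to place. Over all 13181 genes in the fit, 23.4% had the former pattern and 43.7% the latter.

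In the K1 pulldown Slfn4 had 10 and 12 counts in control and 1256 and 1461 in DKO, or 0.766 ± 0.173 and 446 ± 240 CPM. The log2 fold change was 9.53 (SE 0.676), and 8.78 without DKO animal 2. Slfn5 had 204 and 65 counts in control and 1893 and 343 in DKO, a log2 fold change of 5.25 (SE 0.658) that was 6.11 without control animal 1 and 4.38 without DKO animal 1. Slfn2 went from 11.3 ± 4.31 to 59.2 ± 27.1 CPM, a log2 fold change of 2.71 (SE 0.395), and was 3.11 without control animal 1 and 2.21 without DKO animal 1. Slfn8 differed by 1.90 (SE 0.559) and Slfn9 by -0.75 (SE 0.318). Slfn1 had 4 and 3 counts in control and 15 and 0 in DKO, where 0 counts allow up to 1.35 CPM by library total. In 4 members, Slfn2, Slfn4, Slfn5 and Slfn8, both DKO K1 libraries were above both control libraries, and in Slfn9 both were below. Slfn1 and Slfn3, which were not in the fit, overlapped. Over all 12888 genes in the fit, 21.9% were above and 47.3% below in this way.

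**Figure D4:**
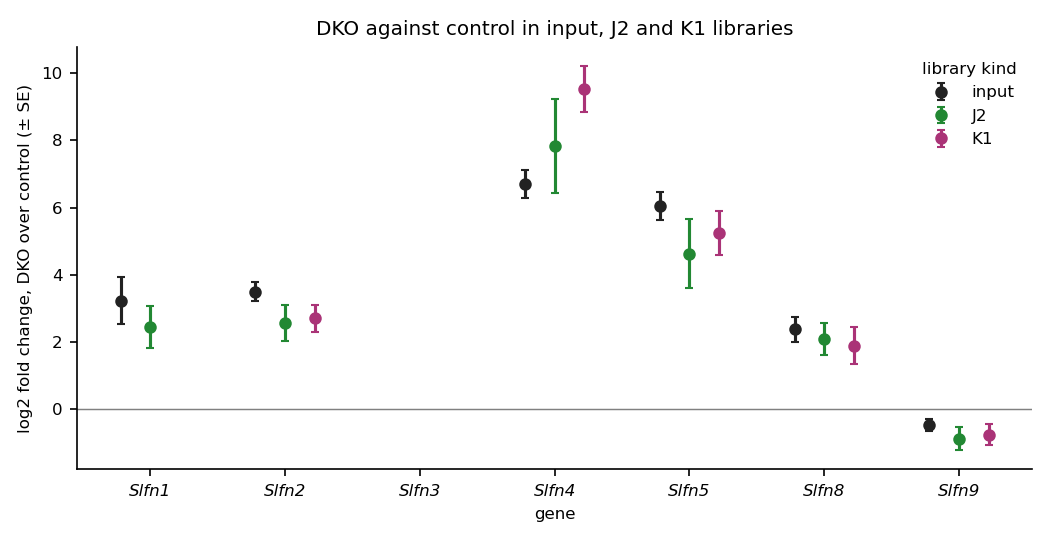
Log2 fold change of DKO over control for each Schlafen gene in input (black), J2 (green) and K1 (purple) libraries. Bars are 1 SE, derived from the F values of the edgeR fits. Slfn4 has its largest value in K1, at 9.53, and Slfn5 its largest in input, at 6.05. Slfn3 entered no fit and Slfn1 none in K1. The J2 and K1 values were used to choose the family and are not tested.

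The pulldowns were then set against the input of the same genotype, to compare the level of each transcript in the 2 kinds of library. These are relative levels that depend on the scaling, and they give no amount of RNA recovered. For each antibody, edgeR fitted the input and pulldown libraries of both genotypes together, and the contrast was taken within a genotype. The spread was estimated over both genotypes, so the DKO libraries bear on the control tests. Slfn4 was in the fits but is described only. In control animals, Slfn9 rose in J2 over input by a log2 fold change of 0.90 (SE 0.230, edgeR adjusted p = 0.0214), from 20.6 and 16.8 CPM to 40.2 and 32.9 CPM. That call was lost with library totals as the scale (0.53, edgeR adjusted p = 0.276). The Slfn9 value was 0.90 without control animal 1 and 0.93 without control animal 2. Only 1 animal then stood for the control group, so whether the call held cannot be judged there. Slfn5 was above input by 2.44 without passing (SE 0.893, adjusted p = 0.0718), from 3.19 and 1.62 CPM to 18.0 and 9.10 CPM. With the animal as a replicate block, in which each pulldown is paired with the input of its animal, Slfn5 passed at 2.42 (edgeR adjusted p = 0.0176). Slfn1, Slfn2 and Slfn8 did not pass, with values of 0.25, 0.29 and 1.00. Over all genes, 29.8% passed in either direction, and 28.2% with the replicate block.

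With K1 in control animals, Slfn5 and Slfn9 both passed. Slfn5 was above input by 1.84 (SE 0.642, edgeR adjusted p = 0.0429), at 13.1 and 4.81 CPM, and Slfn9 by 0.63 (SE 0.227, edgeR adjusted p = 0.0483), at 35.1 and 25.8 CPM. Both calls were near the threshold and were lost with library totals (edgeR adjusted p = 0.0558 and 0.276). Without control animal 1 the values of Slfn5 and Slfn9 were 1.51 and 0.57, and without control animal 2 they were 1.96 and 0.69. With 1 control animal left, whether the calls held cannot be judged. The other 3 tested members did not pass, and 39.8% of all genes did. Slfn5 and Slfn9 are the 2 longest transcripts of the family, and the part of length in these values was not tested.

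In DKO animals 0 of 5 tested members passed in J2 over input, where 25.7% of all genes did, and 0 of 5 passed in K1 over input, where 35.6% did. The counts at an unadjusted edgeR p under 0.05, and those of DESeq2, were also 0 in both. The K1 values were 0.93 for Slfn5 (SE 0.540) and -0.72 for Slfn2 (SE 0.367). With the animal as a replicate block, Slfn5 was higher by 0.83 (edgeR adjusted p = 0.00917) and Slfn2 was lower by -0.77 (edgeR adjusted p = 0.00733) in K1, among 39.8% of genes that passed. In J2 the 2 DKO animals differed. Slfn5 was above input by 1.26 in animal 1 and at -0.58 in animal 2, and its fitted value without DKO animal 2 was 1.50. Slfn2 was below input in both, at -0.49 and -1.49, and its fitted value without DKO animal 1 was -1.39.

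For Slfn4, the log2 level in J2 less that in input was below 0 in both animals numbered 1 and above 0 in both numbered 2, where a number links no animals between genotypes. The values were -1.57 and 1.41 in control animals 1 and 2, and -0.93 and 2.19 in DKO animals 1 and 2. In K1 the control animals were at -2.88 and -1.60 and the DKO animals at -1.13 and 0.87. The control values rest on 10 to 98 pulldown counts. The fitted J2 value over input was 0.12 in control (SE 0.891), from -1.69 to 1.40 without 1 animal, and 1.21 in DKO (SE 0.844), and the latter turned to -0.70 without DKO animal 2. The fitted K1 value was -2.63 in control (SE 0.593) and 0.02 in DKO (SE 0.429), the latter at -1.05 without DKO animal 2 and 0.91 without DKO animal 1.

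**Figure D5:**
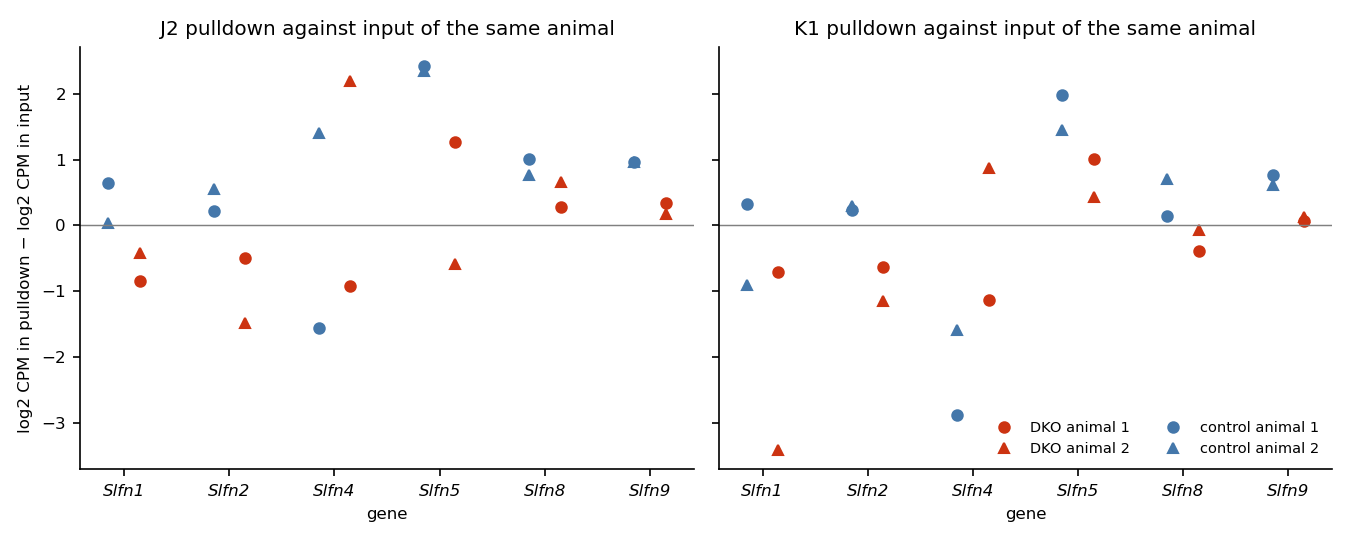
Log2 CPM in the pulldown minus log2 CPM in the input of the same animal, for J2 (left) and K1 (right), for 6 Schlafen genes in control (blue) and DKO (red), with circles for animal 1 and triangles for animal 2. With TMM scaling, Slfn2, Slfn5, Slfn8 and Slfn9 are above 0 in both control animals with both antibodies. By library total, Slfn2 of control animal 1 was at 12.5 CPM in J2 and 13.8 in K1, below 14.4 in input. Slfn8 of that animal was at 0.805 CPM in K1, below 0.873 in input. The share of all genes with this pattern was not computed. Slfn4 in J2 is below 0 in both animals numbered 1 and above 0 in both numbered 2. The lowest K1 point, of Slfn1, is a library with 0 counts. Slfn3 is left out because its counts were 4 or fewer.

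The difference of enrichment is DKO pulldown over input less control pulldown over input. It addresses the question of the study's design, whether the level of a transcript in a pulldown relative to input differed in DKO. Of the 5 members tested, 0 passed in J2, where 2.71% of all genes did, and 0 passed in K1, where 5.47% did. The fitted values were below 0 in all 5. That of Slfn1 in K1 changed sign in some alternatives, and that of Slfn9 in K1 in 1. In J2 the values ran from -0.28 (Slfn8, SE 0.537) to -1.34 (Slfn5, SE 1.17). In K1 they ran from -0.06 (Slfn1, SE 2.74) to -0.92 (Slfn2, SE 0.534), and the SE of Slfn1 is not precise so near 0. The median over all genes was 0.0019 in J2 and -0.20 in K1, and Slfn1 in K1 lay above the latter. The members were measured in the same libraries, and their common sign was not tested. At an unadjusted p under 0.05 the edgeR counts were also 0 and 0, and DESeq2 called 0 and 0. For Slfn2 in K1 the edgeR adjusted p was 0.334, and with the animal as a replicate block the value was -0.98 and the adjusted p 0.0439, among 12% of genes that passed. Slfn2 in K1 less input was at 0.24 and 0.30 in the control animals and at -0.63 and -1.15 in the DKO animals. Without DKO animal 1, the J2 values of Slfn2 and Slfn5 were -1.57 and -2.81, with 1 DKO animal left. Slfn4 was at 1.09 in J2 (SE 1.22) and at 2.65 in K1 (SE 0.735). The J2 value had no stable sign, at -0.22 without control animal 1, 2.76 without control animal 2, 2.33 without DKO animal 1 and -0.80 without DKO animal 2. The K1 value ranged from 1.57 without DKO animal 2 to 3.55 without DKO animal 1.

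Because the antibodies bind paired RNA, the transcripts were searched for inverted repeats, stretches whose reverse complement occurs elsewhere in the same transcript. The longest exact one in Slfn5 was 21 bases. It is shown because it is the longest of the family.
Slfn5 arm 1, transcript bases 3723 to 3743: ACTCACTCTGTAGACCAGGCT
Slfn5 arm 2, transcript bases 4651 to 4671: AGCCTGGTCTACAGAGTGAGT

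Both arms lie in the 3' UTR of the longest GENCODE M21 transcript, 907 bases apart, and all their letters are in capitals because each is complementary to a letter of the other arm. Of 1347 protein-coding transcripts within 10% of the length of Slfn5, 4.68% had an exact repeat at least as long, and the median was 13 bases. One or the other arm occurred in 433 of 21951 protein-coding transcripts. In the other 6 members the longest was 11 or 12 bases. Slfn9, which passed over input in control K1 together with Slfn5, had 11 bases, and 99.9% of transcripts near its length had at least as long a repeat.

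Across the 12 libraries, the genes most like each member in log2 CPM were found by Pearson's r over 9727 genes with a mean count of at least 50 (9728 for Slfn8). The 12 libraries come from 4 animals and fall into DKO and control, so these values describe a likeness and carry no test. Slfn4 was nearest to Clca3a1 at 0.983, Mx2 at 0.979 and Phf11d at 0.978. Slfn2 was nearest to Spats2l at 0.994, Dusp6 at 0.990 and Herc6 at 0.986. Slfn5 was nearest to Hk2 at 0.985, Gbp3 at 0.982 and Irf5 at 0.979. Slfn8, with few counts, was nearest to Irf9 at 0.958. Slfn9 was nearest to Foxm1 at 0.976, Smim13 at 0.975 and Rasgrf2 at 0.973. Among the members themselves, Slfn2 and Slfn5 were the closest pair at 0.940, and Slfn4 and Slfn9 were the most opposed at -0.805.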

How the data were processed

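The authors deposited whole-number read counts per gene, 1 file per library, counted without strand per the labels. Per the submitters' processing notes, the tools included STAR 2.7.10b, UMI-tools 1.1.4, HTSeq 2.0.2 and the builds mm10 and GRCm38.p4. Their settings, and whether molecular identifiers were used to remove copies, are not given in the sources used here. The closing rows of each file, for reads given to no single gene, were left out of library sizes.

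Fold changes came from edgeR 4.0.16 (R 4.3.3; glmQLFit, glmQLFTest) with TMM scaling, filterByExpr with a count minimum of 10 and Benjamini-Hochberg adjustment over all genes tested. A gene was called at an adjusted p under 0.05. Each SE was derived from the edgeR fit, as the size of the log2 fold change over the square root of its F value. Such an SE is not precise where the log2 fold change is near 0. Log2 CPM used a prior count of 2. Alternatives were other scalings, DESeq2 1.42.0, no filter, each animal left out, 1 fit of all 12 libraries, thinning to 2220291 counts and the replicate block. The code was tested on simulated counts. Input and pulldowns of an animal are paired by the animal tag in the labels. The deviations of input and pulldown correlated at 0.373 to 0.567 over 9742 genes. Those of J2 and K1 correlated at 0.662 in control and 0.722 in DKO.

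The members and gene lists were chosen with earlier results of these data known. The text names all 7 members, related genes, the 3 largest and 3 smallest of the interferon list, the called signalling genes (1 is not reported here) and the ligands, and the genes most like each member. Transcripts and exon lengths are of GENCODE M21, and 2 of the 7 members have the same identifier version there. Sequences were compared with blastn 2.17.0+.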

Additional observations from a re-analysis of the deposited data

Results flagged for a closer look

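For Slfn2, the short member known from T lymphocytes, the K1 level relative to input was compared between the genotypes. It differed by a test only when each pulldown was paired with its input. The difference of enrichment was -0.92 on the log2 scale (SE 0.534), and it did not pass in the edgeR fit without the animal (adjusted p = 0.334). With the animal as a replicate block it was -0.98 and passed (edgeR adjusted p = 0.0439). Over the alternatives the value lay between -0.76 and -1.31. The K1 values over input were 0.24 and 0.30 in control animals and -0.63 and -1.15 in DKO animals. The median of this difference over all genes was -0.20, and the DKO K1 libraries held 5559033 and 2220291 gene counts against 16139531 and 14035066 in control. The part of depth in this value was not tested.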

How the results depend on the processing

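In input, 5 members were called higher in 10 of 11 alternatives, and 3 (Slfn2, Slfn4 and Slfn5) with libraries thinned to the shallowest, where Slfn1 and Slfn8 were not tested; the replicate block, which there pairs animals by number only (their deviations correlated at 0.039), changed no call. All 64 member values in input kept their direction and side of the threshold. The calls of pulldown over input depended on the setting. In control J2, where 1 member was called higher, 0 were called with library totals and with thinning, 2 with DESeq2, with no filter and with the replicate block, and 0 to 3 without an animal. In control K1, where 2 were called higher, 0 were called with library totals, with DESeq2 size factors and with thinning, 1 with DESeq2, with no filter and in 1 fit of all libraries, and 0 to 2 without an animal. In DKO J2, 0 to 1 were called higher and 0 to 1 lower without an animal. In DKO K1, 1 was called lower with library totals, 1 higher and 1 lower with no filter, and 1 higher and 1 lower with the replicate block. The J2 difference of enrichment had 0 to 2 called lower without an animal, and the K1 difference 1 with the replicate block. The block, paired by animal, changed no other call. Of 570 member values under the alternatives, 22 had the other sign, and none of these belonged to a call. Without an animal, Slfn4 ranged from -1.69 to 1.40 in control J2 over input, -0.70 to 2.30 in DKO J2, -1.05 to 0.91 in DKO K1 and -0.80 to 2.76 in the J2 difference. Slfn5 in DKO J2 ranged from -0.48 to 1.50. Slfn1 ranged from -0.0098 to 1.08 in control J2, -1.40 to 0.54 in control K1 and -6.81 to 0.56 in the K1 difference, where 1 library had 0 counts. With library totals, Slfn1, Slfn2 and Slfn4 turned to -0.10, -0.083 and -0.27 in control J2, Slfn2 to -0.028 in control K1, and Slfn4 and Slfn9 to -0.19 and -0.14 in DKO K1. With the replicate block Slfn4 turned to -0.10 in control J2 and -0.034 in DKO K1. In the K1 difference Slfn1 turned to 0.086 with DESeq2 size factors and Slfn9 to 0.087 with thinning. The cause was not tested in these cases.

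The DKO pulldowns had the fewest counts, which limits Slfn1, Slfn3 and Slfn8. In an arm left with 1 animal, its spread was taken from the other groups, so calls there do not compare with the main fit. Intervals and limits cover counting error only.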
